A study of Mus musculus with 12 samples.

Results

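The genes described here are the nuclear genes of the mitochondrial respiratory chain: the subunits of complexes I to V and the assembly factors whose symbols start with Ndufaf, Sdhaf or Uqcc. They were chosen by symbol (Nduf, Sdha to Sdhd, Sdhaf, Uqcr, Uqcc, Cox4 to Cox8 and Atp5) among array rows that carried exactly 1 gene symbol, and where a gene had several rows the one with the highest mean was used. This gave 96 genes of 22180 in the arrays, with 81 subunits (34 of complex I, 4 of complex II, 8 of complex III, 17 of complex IV and 18 of complex V) and 15 assembly factors (8 for complex I, 4 for complex II and 3 for complex III). By their symbols, Atp5c1-ps and Uqcrh-ps1 are pseudogenes, and they stayed in the set because the rule took them. Rows that listed several symbols, such as those of Ndufb2, Ndufb4, Ndufs6, Cox6c and Uqcr10, were not used here.

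The cells were cTreg cells, regulatory T cells with a central (CD62L high, CD44 low) surface phenotype, sorted as YFP+ CD4+ cells from spleen and peripheral lymph nodes of Foxp3-YFP+ transgenic mice backcrossed to C57BL/6. There were 4 groups of 3 arrays: cells activated for 20 h with 500 nM PP242, cells activated for 20 h with 50 nM Torin 1, cells activated for 20 h with the vehicle DMSO, and unstimulated cells at 0 h, whose labels also name DMSO. Activation was by antibodies to CD3 and CD28 together with recombinant IL-2, and PP242 and Torin 1 both inhibit the kinase mTOR at its ATP site. All mice shared 1 genetic background and the inhibitors were given at different doses. Since none of the groups spent 20 h in culture without stimulation, culture and stimulation cannot be told apart.

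The respiratory chain sits in the inner mitochondrial membrane. Complex I takes electrons from NADH and complex II takes them from succinate, both hand them to coenzyme Q, complex III passes them on to cytochrome c, and complex IV gives them to oxygen. Complexes I, III and IV pump protons as they work, and complex V, the ATP synthase, lets the protons back to make ATP. A few subunits are encoded by mitochondrial DNA, the rest are nuclear, and assembly factors help to build a complex without staying in it. T cells enlarge their mitochondria and raise respiration as they leave quiescence, and mTOR complex 1 is known to favour translation of nuclear mRNAs for mitochondrial proteins.

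Nuclear respiratory factor 1 (NRF1) and nuclear respiratory factor 2 (GABP) are transcription factors named for their sites in promoters of respiratory chain genes. The promoters below are shown because the array values of their genes differed, as described further on. They run from 250 bases before to 50 bases after the RefSeq start (GRCm38.p6), 5′ to 3′ on the strand of the gene. Capitals mark matches, on either strand, to GCGCA, any base and GCGC (NRF1), CCGGAAG (GABP) or AAGATGG (YY1), and matches that touch or overlap run together. Ndufaf4 had the highest rise on activation of all 96 genes, Sdhb and Sdhd rose while Sdha of the same complex was not called, and Cox6a1, a complex IV subunit of most tissues, rose while Cox7a1, a muscle isoform of another complex IV subunit, was not called.
Ndufaf4 (complex I assembly factor, chr4:24897833-24898132, plus strand): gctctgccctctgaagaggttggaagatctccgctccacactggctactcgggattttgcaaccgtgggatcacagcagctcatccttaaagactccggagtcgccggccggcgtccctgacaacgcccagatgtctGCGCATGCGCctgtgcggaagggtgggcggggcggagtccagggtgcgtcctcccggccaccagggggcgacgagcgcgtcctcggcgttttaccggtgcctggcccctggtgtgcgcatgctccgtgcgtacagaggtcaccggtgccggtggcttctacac
Sdha (complex II flavoprotein, chr13:74350191-74350490, minus strand): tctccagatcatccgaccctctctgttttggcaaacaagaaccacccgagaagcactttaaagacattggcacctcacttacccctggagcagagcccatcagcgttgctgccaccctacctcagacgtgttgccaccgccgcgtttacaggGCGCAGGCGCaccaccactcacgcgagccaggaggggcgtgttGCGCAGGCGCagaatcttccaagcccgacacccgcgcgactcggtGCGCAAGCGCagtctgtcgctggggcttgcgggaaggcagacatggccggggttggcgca
Sdhb (complex II iron-sulfur subunit, chr4:140961021-140961320, plus strand): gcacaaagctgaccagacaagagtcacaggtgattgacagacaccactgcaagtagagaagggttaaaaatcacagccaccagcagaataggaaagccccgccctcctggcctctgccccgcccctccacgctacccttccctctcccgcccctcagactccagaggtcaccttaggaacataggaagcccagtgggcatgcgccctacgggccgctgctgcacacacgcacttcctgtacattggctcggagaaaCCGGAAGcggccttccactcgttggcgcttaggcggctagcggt
Sdhd (complex II membrane anchor, chr9:50603800-50604099, minus strand): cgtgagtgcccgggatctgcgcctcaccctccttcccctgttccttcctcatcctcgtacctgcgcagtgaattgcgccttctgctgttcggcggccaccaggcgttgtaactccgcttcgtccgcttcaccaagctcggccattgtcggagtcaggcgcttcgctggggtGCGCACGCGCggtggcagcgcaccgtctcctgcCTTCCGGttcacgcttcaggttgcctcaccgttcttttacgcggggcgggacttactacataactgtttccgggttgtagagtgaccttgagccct
Cox6a1 (complex IV subunit of most tissues, chr5:115348909-115349208, minus strand): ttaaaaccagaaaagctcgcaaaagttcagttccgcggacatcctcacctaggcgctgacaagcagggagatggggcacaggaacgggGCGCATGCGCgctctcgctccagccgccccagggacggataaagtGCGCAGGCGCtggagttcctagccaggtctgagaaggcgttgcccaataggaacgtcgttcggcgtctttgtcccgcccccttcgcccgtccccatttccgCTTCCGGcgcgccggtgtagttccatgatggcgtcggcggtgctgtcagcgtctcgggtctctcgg
Cox7a1 (complex IV isoform of heart and skeletal muscle, chr7:30183921-30184220, plus strand): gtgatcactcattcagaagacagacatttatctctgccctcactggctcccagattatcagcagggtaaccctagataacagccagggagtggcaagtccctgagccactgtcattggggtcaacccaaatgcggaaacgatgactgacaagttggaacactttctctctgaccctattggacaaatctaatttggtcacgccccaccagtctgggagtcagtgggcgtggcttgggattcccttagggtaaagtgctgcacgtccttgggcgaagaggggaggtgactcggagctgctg

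The Sdha window held 3 NRF1 matches, the Ndufaf4 window held 1, and Cox6a1 had 2 NRF1 matches and 1 GABP match. Sdhd carried 1 NRF1 and 1 GABP match, Sdhb 1 GABP match, and the Cox7a1 window none of these. A promoter was matched by Entrez gene identifier for 79 of the 96 genes. Some genes have more than 1 window, and a gene was counted where any of its windows held a match. An NRF1 match was found for 20 of the 79 genes (25.3%), against 5.19% of all 27025 genes with a promoter, and a GABP match for 22 (27.8%), against 9.93%. By complex, with assembly factors included, the genes with a promoter were 37 for complex I, 7 for II, 7 for III, 13 for IV and 15 for V, so these shares rest on few genes. NRF1 shares were 18.9% for complex I, 57.1% for II, 28.6% for III, 7.69% for IV and 40% for V. GABP shares were 16.2%, 71.4%, 28.6%, 23.1% and 40% in the same order. In complex IV, Cox5a and Cox5b also rose on activation, and their windows held no NRF1, GABP or YY1 match. YY1 matches were found for 15.2% of the 79 genes, against 7.28% of all. SP1 matches (GGGCGG) were found for 51.9%, against 38.2%, ERR matches (AAGGTCA) for 8.86%, against 5.38%, and MYC matches (CACGTG) for 8.86%, against 8.09%. Among the respiratory chain genes, NRF1 matches were found for 13 of the 48 that rose on activation (27.1%) and for 7 of the 31 that were not called (22.6%). GABP matches were found for 16 of the genes that rose (33.3%) and 6 of those not called (19.4%), and SP1 matches for 56.2% and 45.2%. For the other motifs the share was lower among the genes that rose. It was 14.6% against 16.1% for YY1, 8.33% against 9.68% for ERR and 6.25% against 12.9% for MYC. These differences were not tested. These matches are descriptions of letters, and no binding was measured.

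Levels below are RMA values on the log2 scale, a change is 1 group mean minus another on that scale, given ± its standard error (SE) from the fit, and a gene was called where its adjusted p (limma, Benjamini-Hochberg over 22180 genes) was under 0.05. No array stood apart: correlations between arrays were 0.964 to 0.987. Markers of the sorted cells were present, with Foxp3, the lineage factor of regulatory T cells, at 11.73, 11.62 and 11.61 with PP242, 11.66, 11.67 and 11.58 with Torin 1, 11.43, 11.29 and 11.34 with DMSO and 11.95, 11.95 and 11.99 in unstimulated cells. Of 7 markers of the sorted cells, Foxp3 (-0.61) and Ctla4 (-0.53) fell on activation, Cd4, Cd3e and Cd3g rose, and Foxp3 and Ctla4 were higher with PP242 than with DMSO. Cd69, Irf4, Myc and Tnfrsf9, induced by T cell activation, all rose in DMSO cells against unstimulated cells (4 of 4 called). Of these, Myc (-0.48) and Tnfrsf9 (-0.79) fell with PP242 and 0 fell with Torin 1, and Tnfrsf9 was also lower with PP242 than with Torin 1. The mean of the 4 ran 9.94 to 10.04 with PP242, 10.30 to 10.35 with Torin 1, 10.30 to 10.36 with DMSO and 8.69 to 8.94 in unstimulated cells. Of 5 platelet markers, Itga2b, Itgb3 and Treml1 fell on activation, and the mean of the 5 ran 5.69 to 5.81 with PP242, 5.75 to 5.82 with Torin 1, 5.48 to 5.52 with DMSO and 5.91 to 5.97 in unstimulated cells. Pf4, an abundant platelet transcript, was under the median of all values (5.14) in all groups, and the mean of the other lists ran 4.67 to 5.05 for 4 B cell, 4.32 to 4.81 for 3 NK cell, 4.46 to 4.85 for 5 myeloid, 4.82 to 5.23 for 3 dendritic and 5.81 to 6.34 for 2 CD8 T cell markers over the 12 arrays. On activation Cd79b and Ncr1 fell and Ms4a1 rose among these. Against DMSO cells, Itga2b rose under both inhibitors, Itgb3 rose under PP242 and Ms4a1 fell under Torin 1. The part of these markers in the results was not tested. Each RNA sample came from a cell population, so fewer cells of a type and less RNA per cell cannot be told apart.

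Most of the respiratory chain genes were higher after activation. In DMSO cells against unstimulated cells, 57 of the 96 genes rose and 0 fell, where 11.8% of all genes rose and 12.1% fell. At an unadjusted p under 0.05, 64 were higher and 2 lower. Here and below, the share of all genes at that unadjusted threshold was not counted. The median change of the 96 genes was 0.40, beside -0.04 over all genes, and in 65 of them every DMSO array was above every unstimulated array, which held for 17.4% of all genes. The mean of the 96 genes ran 7.75 to 7.98 in PP242 arrays, 7.82 to 7.93 in Torin 1 arrays, 8.15 to 8.22 in DMSO arrays and 7.65 to 7.84 in unstimulated arrays, so the DMSO arrays did not overlap with any other group. The rise was at least 1.5-fold in 33 of the 57 genes, beside 1530 of the 2612 genes of all kinds that rose. Of the 57 calls, 43 held whichever single array was left out. Here and below, the share of all genes whose calls held in that way was not counted. Of the 96 genes, 7 (Ndufa4l2, Uqcrh-ps1, Cox8b, Cox8c, Cox7b2, Atp5j2 and Atp5c1-ps) were at or under the median of all values in every group, and none of these was called on activation. Among the 89 others the median change was 0.43, beside -0.05 over the 11747 genes of all kinds that were above that level in a group.

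**Figure D1:**
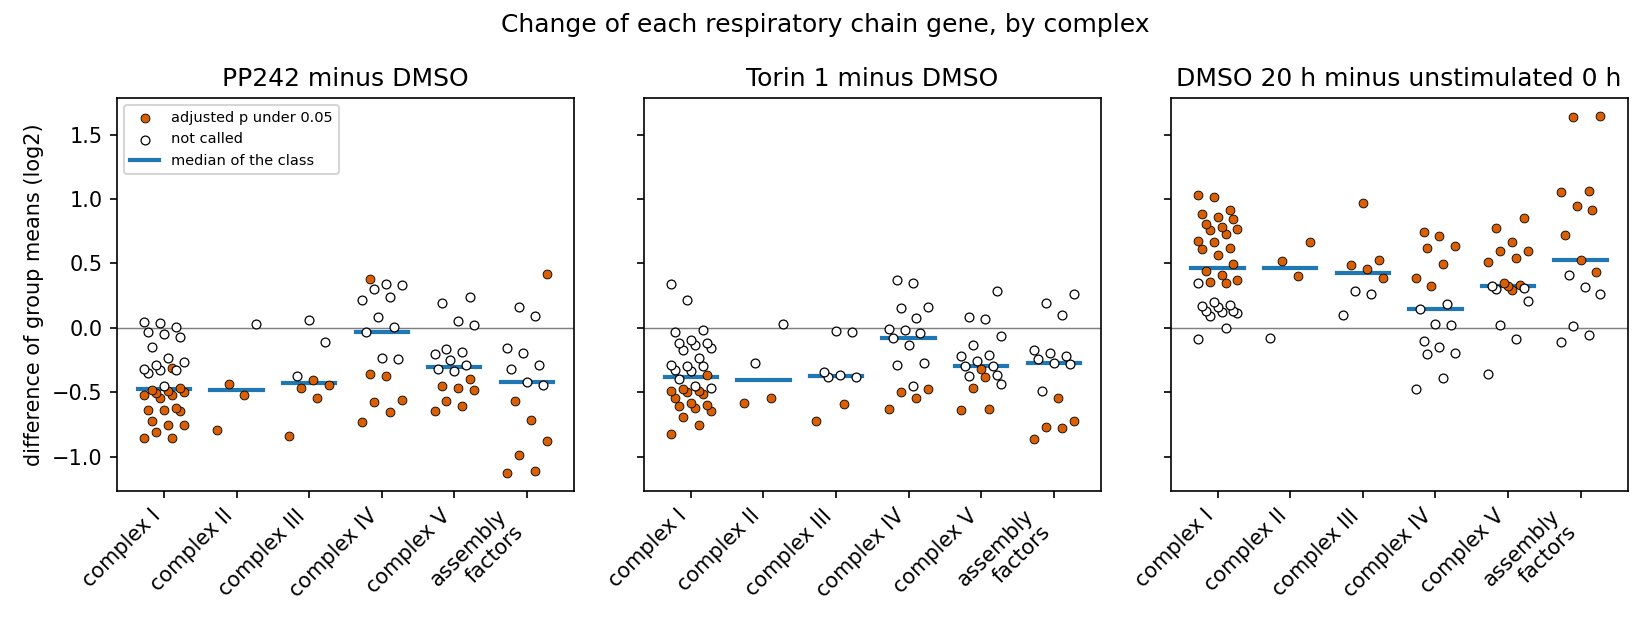
Difference of group means (log2, y axis) of each respiratory chain gene, grouped by complex (subunits) and with the assembly factors of complexes I to III in the last column, for PP242 minus DMSO, Torin 1 minus DMSO and DMSO at 20 h minus unstimulated at 0 h. Filled points passed an adjusted p of 0.05, open points did not, and bars are class medians, which on activation run 0.15 for complex IV to 0.53 for the assembly factors.

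Every complex had subunits that rose. Subunits rose on activation in 22 of 34 for complex I, 3 of 4 for complex II, 5 of 8 for complex III, 7 of 17 for complex IV and 11 of 18 for complex V, and assembly factors rose in 9 of 15. The share of all genes that rose was 11.8%. Median changes were 0.47 for complex I, 0.46 for complex II, 0.42 for complex III, 0.15 for complex IV, 0.33 for complex V and 0.53 for the assembly factors. The differences between complexes were not tested, since their genes share the same arrays.

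**Figure D2:**
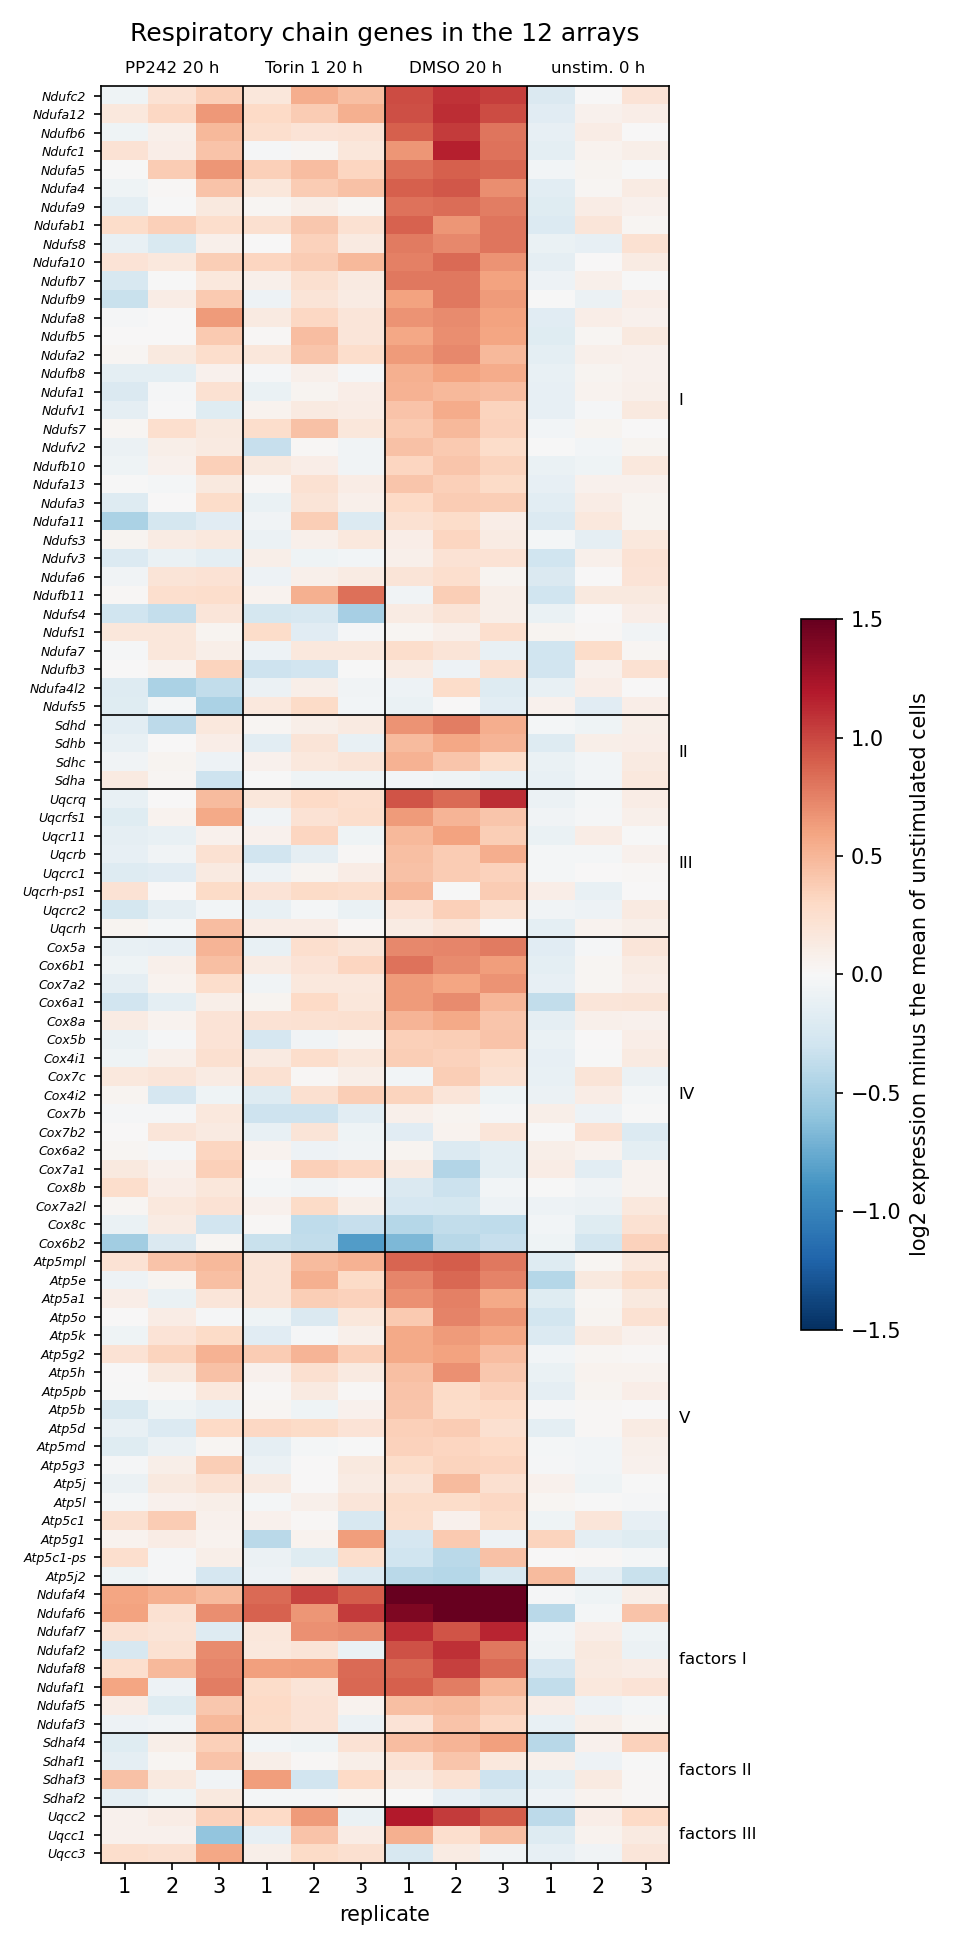
Log2 expression of the 96 genes (rows, by complex and then assembly factors, ordered within each by the change on activation) in the 12 arrays (columns, 3 replicates per group), each minus the gene's mean in unstimulated cells, with differences beyond 1.5 shown in the end colour. The DMSO columns are the reddest block for most rows of complexes I, II, III and V. The lower rows of complex IV, which hold isoforms of single tissues and also Cox7b and Cox7a2l, show no such block.

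Within complex I, subunits of the electron-carrying core and accessory subunits rose. Ndufc2, an accessory membrane subunit with the highest rise in the complex, read 9.65, 9.93 and 10.07 with PP242, 9.88, 10.26 and 10.16 with Torin 1, 10.69, 10.80 and 10.75 with DMSO and 9.50, 9.73 and 9.92 in unstimulated cells. Every DMSO value lay above the values of the other 3 groups. Its change was 1.03 ± 0.14 (adjusted p = 9.08e-05) on activation, -0.64 ± 0.14 (adjusted p = 0.0115) under Torin 1 and -0.86 ± 0.14 (adjusted p = 0.000734) under PP242, the last being the lowest called value in complex I with that compound. The Torin 1 call ended without Torin 1 replicate 1 (adjusted p = 0.0597). The Torin 1 call ended without Torin 1 replicate 1 (adjusted p = 0.0597). Ndufc1, its partner subunit, was the lowest with Torin 1 at -0.82 ± 0.14 (adjusted p = 0.00231), after a rise of 0.88 on activation. Ndufa12 at 1.02, Ndufb6 at 0.92 and Ndufab1, the mitochondrial acyl carrier protein, at 0.78 were further accessory subunits that rose.

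The core subunits carry the flavin and iron-sulfur centres. Ndufv1, which binds NADH, read 8.41, 8.54 and 8.37 with PP242, 8.60, 8.68 and 8.67 with Torin 1, 8.98, 9.10 and 8.88 with DMSO and 8.43, 8.53 and 8.70 in unstimulated cells. The DMSO arrays lay above the other groups, with a change of 0.44 ± 0.10 (adjusted p = 0.0062) on activation, -0.55 ± 0.10 (adjusted p = 0.00212) under PP242 and -0.34 ± 0.10 (adjusted p = 0.0616) under Torin 1, the last not called. Ndufs1, the largest iron-sulfur subunit, read 7.67, 7.66 and 7.54 with PP242, 7.77, 7.33 and 7.47 with Torin 1, 7.53, 7.57 and 7.75 with DMSO and 7.54, 7.51 and 7.44 in unstimulated cells. Its groups overlapped, and its change was 0.12 ± 0.12 (adjusted p = 0.505) on activation with a 95% interval -0.13 to 0.37. Of the 6 core subunits measured, 4 rose (Ndufv1, Ndufv2, Ndufs7 and Ndufs8) with a median of 0.39, and 18 of the 28 other subunits rose with a median of 0.59, a split made after the values were seen. On activation 11.8% of all genes rose. The Ndufv2 call ended without DMSO replicate 1, DMSO replicate 2, unstimulated replicate 1 or unstimulated replicate 2 (adjusted p 0.0642 to 0.0818). Ndufa13 had the lowest called rise in the complex at 0.35 ± 0.10 (adjusted p = 0.0208) and its PP242 change was -0.31 ± 0.10 (adjusted p = 0.0486). The Ndufa13 activation call ended without DMSO replicate 1, DMSO replicate 2 or unstimulated replicate 1 (adjusted p 0.0523 to 0.0876), and its PP242 call ended with any of 10 single arrays left out (adjusted p 0.0503 to 0.145). Ndufa4, which later work assigns to complex IV although its symbol places it here, rose by 0.84 and changed by -0.51 under Torin 1 and -0.72 under PP242. The Torin 1 call of Ndufa4 ended without DMSO replicate 1, DMSO replicate 2, Torin 1 replicate 1, Torin 1 replicate 2 or Torin 1 replicate 3 (adjusted p 0.0522 to 0.14).

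In complex II, Sdhb, Sdhc and Sdhd rose on activation and Sdha was not called. Sdha, the flavoprotein that oxidises succinate, read 9.80, 9.71 and 9.36 with PP242, 9.67, 9.61 and 9.61 with Torin 1, 9.63, 9.60 and 9.56 with DMSO and 9.56, 9.63 and 9.83 in unstimulated cells. All groups overlapped, and the changes were -0.07 ± 0.12 (adjusted p = 0.704) on activation (95% interval -0.33 to 0.18), 0.03 under Torin 1 (95% interval -0.22 to 0.29) and 0.03 under PP242 (95% interval -0.23 to 0.28). Sdhb, the iron-sulfur subunit that binds Sdha, read 8.34, 8.46 and 8.54 with PP242, 8.28, 8.64 and 8.34 with Torin 1, 8.92, 9.02 and 8.95 with DMSO and 8.25, 8.54 and 8.55 in unstimulated cells. The DMSO arrays were above all others, and the change was 0.52 ± 0.12 (adjusted p = 0.00538) on activation, -0.55 ± 0.12 (adjusted p = 0.0124) under Torin 1 and -0.52 ± 0.12 (adjusted p = 0.00782) under PP242. Sdhd, a membrane anchor at the coenzyme Q site, read 7.39, 7.16 and 7.71 with PP242, 7.58, 7.64 and 7.69 with Torin 1, 8.22, 8.32 and 8.10 with DMSO and 7.53, 7.49 and 7.64 in unstimulated cells. It changed by 0.66 ± 0.13 (adjusted p = 0.00155) on activation, -0.58 ± 0.13 (adjusted p = 0.0126) under Torin 1 and -0.79 ± 0.13 (adjusted p = 0.000692) under PP242. Sdhc, the other anchor, changed by 0.40 ± 0.10 (adjusted p = 0.0102) on activation and -0.44 ± 0.10 (adjusted p = 0.00938) under PP242, and at -0.27 ± 0.10 (adjusted p = 0.138) was not called with Torin 1 although its DMSO arrays were all above its Torin 1 arrays. Without DMSO replicate 2 or Torin 1 replicate 1 (adjusted p 0.0536 to 0.0539) the Sdhd call with Torin 1 ended, and the Sdhb call with Torin 1 ended without Torin 1 replicate 1 (adjusted p = 0.0627).

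**Figure D3:**
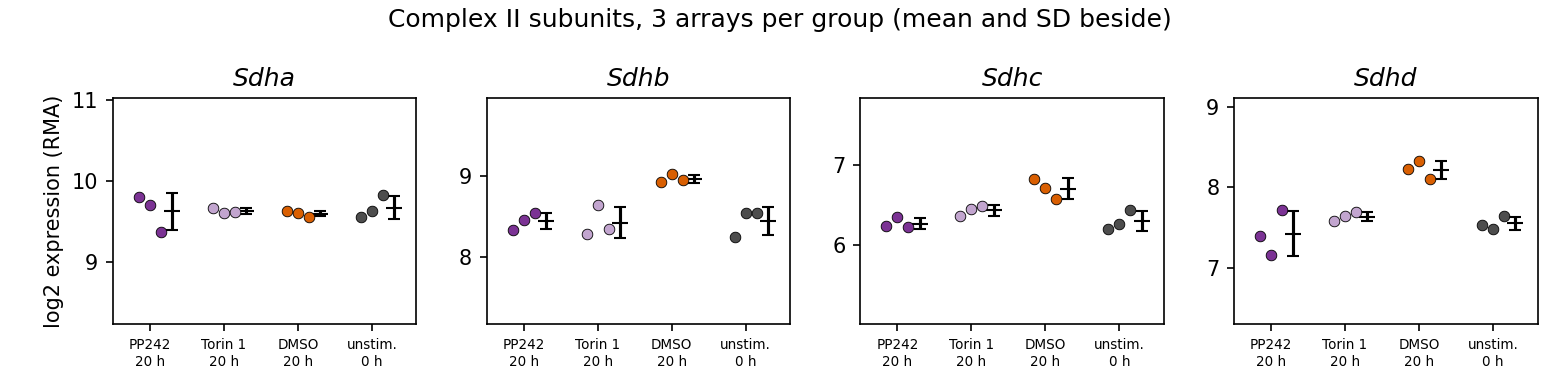
Log2 expression (RMA, y axis, each panel spanning the same range) of the 4 complex II subunits in each array, as points by group, with the group mean and SD beside them (n = 3). The 3 DMSO points are above all other points for Sdhb, Sdhc and Sdhd, and for Sdha the 4 groups overlap.

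In complex III the highest rise was that of Uqcrq, a small membrane subunit, which read 7.10, 7.21 and 7.69 with PP242, 7.38, 7.51 and 7.46 with Torin 1, 8.16, 8.05 and 8.31 with DMSO and 7.13, 7.18 and 7.32 in unstimulated cells. The DMSO arrays were above the rest, and the change was 0.97 ± 0.14 (adjusted p = 0.000137) on activation, -0.73 ± 0.14 (adjusted p = 0.00518) under Torin 1 and -0.84 ± 0.14 (adjusted p = 0.00078) under PP242, calls that held with every single array left out. Uqcrfs1, the Rieske iron-sulfur protein, rose by 0.52 ± 0.16 (adjusted p = 0.0271), and at -0.38 under Torin 1 and -0.37 under PP242 was not called. The rise of Uqcrfs1 was not called without DMSO replicate 1, DMSO replicate 2, unstimulated replicate 1 or unstimulated replicate 2 (adjusted p 0.0595 to 0.089). Uqcrc1, a core subunit, had the lowest called rise at 0.39 ± 0.11 (adjusted p = 0.0157), which ended without DMSO replicate 1 (adjusted p = 0.051), and changed by -0.46 ± 0.11 (adjusted p = 0.0075) under PP242. Uqcrc2, the other core subunit, was called with PP242 at -0.41 ± 0.10 (adjusted p = 0.0119), and not on activation (0.26) or with Torin 1 (-0.34). The PP242 call ended without DMSO replicate 2 or PP242 replicate 1 (adjusted p 0.0517 to 0.0582). The PP242 call was lost without DMSO replicate 2 or PP242 replicate 1 (adjusted p 0.0517 to 0.0582). Uqcrb fell by 0.59 ± 0.11 (adjusted p = 0.00591) with Torin 1. Uqcr11 rose on activation and fell with PP242, and both calls held whichever single array was left out. Uqcrh, the hinge protein, was at 0.10 on activation, -0.02 under Torin 1 and 0.06 under PP242, none of them called.

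Complex IV had the lowest median change on activation (0.15, or 0.26 over the 14 of its 17 genes that passed a filter on dim genes). Several of its subunits have a form used in most tissues and paralogues used in heart and skeletal muscle (Cox6a2, Cox7a1, Cox8b), lung (Cox4i2) or testis (Cox6b2, Cox7b2, Cox8c). Of the 9 subunits of most tissues, 7 rose on activation with a median of 0.50, and 4 fell with Torin 1 and 6 with PP242. Of all genes, 11.8% rose on activation, and 4.79% fell with Torin 1 and 9.27% with PP242. None of the 7 isoforms of single tissues was called on activation, where 11.8% of all genes were called higher and 12.1% lower, and their median was -0.15. That grouping was made after the values were seen and leaves out Cox7a2l.

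Cox7a2, the widely used form, read 10.44, 10.63 and 10.84 with PP242, 10.53, 10.73 and 10.74 with Torin 1, 11.21, 11.17 and 11.26 with DMSO and 10.45, 10.61 and 10.68 in unstimulated cells. Its DMSO arrays were above all others, with a change of 0.64 ± 0.12 (adjusted p = 0.000956) on activation, -0.55 ± 0.12 (adjusted p = 0.00947) under Torin 1 and -0.58 ± 0.12 (adjusted p = 0.00314) under PP242. The Torin 1 call ended without Torin 1 replicate 1 (adjusted p = 0.0515). Cox7a1, the muscle form, read 5.37, 5.29 and 5.58 with PP242, 5.23, 5.58 and 5.53 with Torin 1, 5.36, 4.78 and 5.08 with DMSO and 5.33, 5.06 and 5.27 in unstimulated cells. Its groups overlapped and its change was -0.15 ± 0.15 (adjusted p = 0.529) on activation. Cox7a2l, a relative described in supercomplexes of complexes III and IV, read 8.16, 8.28 and 8.34 with PP242, 8.19, 8.41 and 8.22 with Torin 1, 7.87, 7.86 and 8.05 with DMSO and 8.05, 8.04 and 8.28 in unstimulated cells, and was lower in every DMSO array than in any inhibitor array. It was not called, at 0.35 ± 0.11 (adjusted p = 0.069) under Torin 1, 0.33 ± 0.11 (adjusted p = 0.0502) under PP242 and -0.20 ± 0.11 (adjusted p = 0.215) on activation.

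Among the other isoform pairs, Cox4i1 changed by 0.33 ± 0.11 (adjusted p = 0.0395) on activation and Cox4i2 by 0.15, not called. Cox6a1 rose by 0.62 ± 0.15 (adjusted p = 0.00769) and fell by 0.73 ± 0.15 (adjusted p = 0.00368) with PP242, the lowest value in the complex, while Cox6a2 was at -0.10 on activation and 0.22 under PP242, neither called. Cox6b1 rose by 0.72 (adjusted p = 0.00109), whereas Cox6b2 was at -0.48 ± 0.19 (adjusted p = 0.0814) and was below its unstimulated arrays in every DMSO array without being called. Cox8a rose by 0.50 (adjusted p = 0.00152), while Cox8c was at -0.39 and Cox8b at -0.19, not called. Cox8b, at or under the median of all values in every group, was called higher with PP242 at 0.38 ± 0.10 (adjusted p = 0.0161), a call that ended without DMSO replicate 2 or PP242 replicate 1 (adjusted p 0.0698 to 0.0727). Cox5a, which has no such isoform here, had the highest rise at 0.74 ± 0.16 (adjusted p = 0.00377) and fell by 0.63 with Torin 1, and Cox5b fell by 0.47 with Torin 1. Cox7b was at 0.03 on activation in the row used, while its second, dimmer row was at 0.61, and Cox7b2 was at 0.02. The Cox4i1 call was lost with any of 6 single arrays left out (adjusted p 0.05 to 0.146), that of Cox5a with Torin 1 without DMSO replicate 1, DMSO replicate 2, DMSO replicate 3, Torin 1 replicate 1 or Torin 1 replicate 3 (adjusted p 0.0529 to 0.121), and that of Cox5b with Torin 1 without DMSO replicate 3 or Torin 1 replicate 1 (adjusted p 0.0564 to 0.0847). The second, dimmer row of Cox5b was at -0.11 with Torin 1, and the call ended with the median over both rows (-0.29, adjusted p = 0.166).

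**Figure D4:**
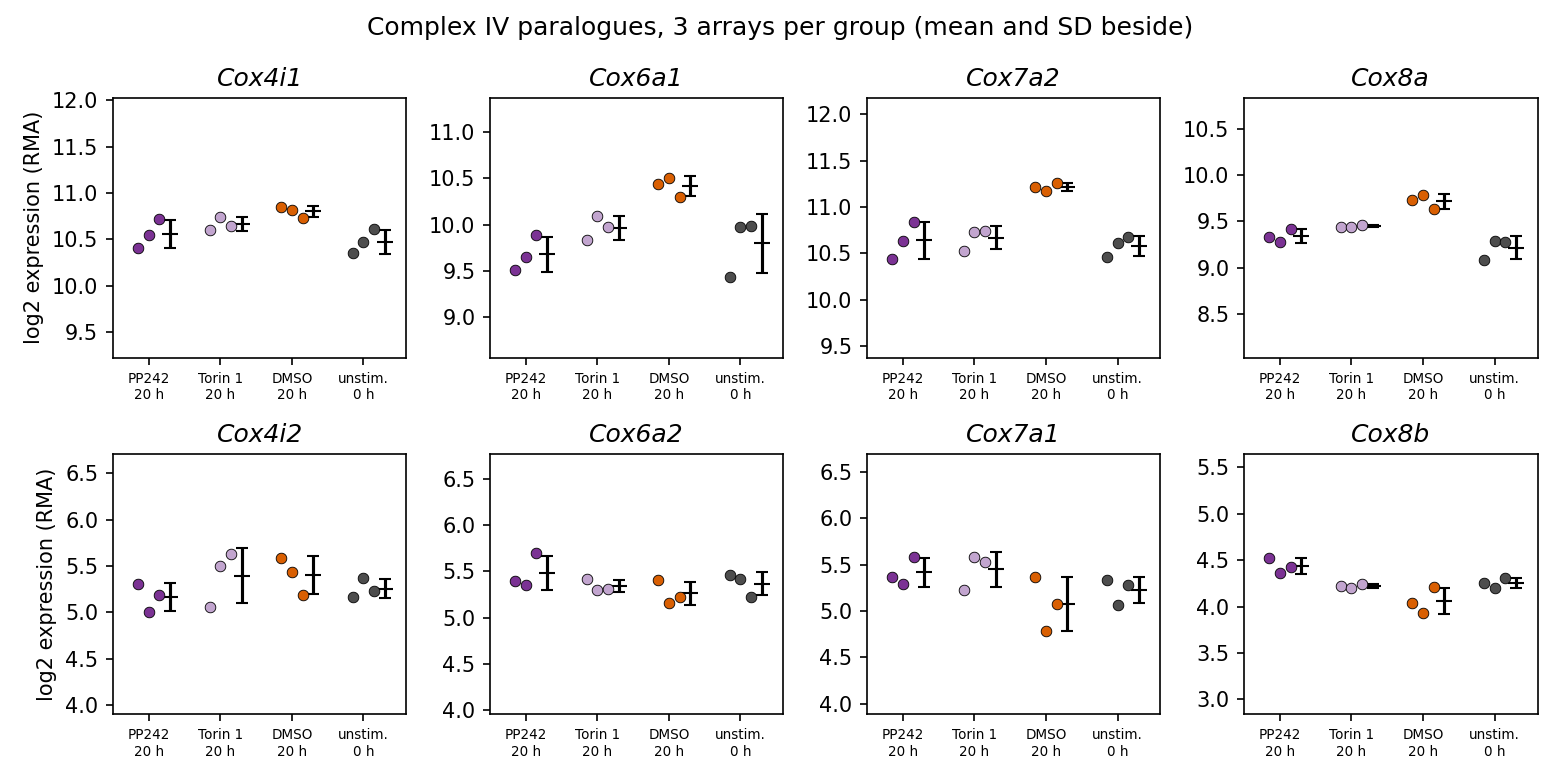
Log2 expression (RMA, y axis, each panel spanning the same range) in each array of 4 complex IV subunits of most tissues (top row) and their isoforms of single tissues (bottom row), as points by group, with the group mean and SD beside them (n = 3). On activation Cox4i1, Cox6a1, Cox7a2 and Cox8a changed by 0.33, 0.62, 0.64 and 0.50, and the bottom panels show overlapping DMSO and unstimulated points.

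In complex V, subunits of the catalytic head and of the membrane part rose. Atp5a1, the alpha subunit of the catalytic F1 head, read 10.51, 10.31 and 10.59 with PP242, 10.60, 10.78 and 10.75 with Torin 1, 11.09, 11.17 and 10.98 with DMSO and 10.23, 10.44 and 10.56 in unstimulated cells. The DMSO arrays were above the others, and the change was 0.67 ± 0.11 (adjusted p = 0.000611) on activation, -0.61 ± 0.11 (adjusted p = 0.00212) under PP242 and, not called, -0.37 ± 0.11 (adjusted p = 0.0656) under Torin 1. Atp5b, the beta subunit that makes ATP, changed by 0.33 ± 0.09 (adjusted p = 0.0173) on activation, -0.32 ± 0.09 (adjusted p = 0.0467) under Torin 1 and -0.47 ± 0.09 (adjusted p = 0.00287) under PP242. The Atp5b call on activation ended without DMSO replicate 1 or unstimulated replicate 1 (adjusted p 0.0504 to 0.0677), and that with Torin 1 ended with any of 11 single arrays left out (adjusted p 0.0528 to 0.147). Atp5mpl, a small membrane subunit, had the highest rise at 0.86 ± 0.12 (adjusted p = 0.000143), and Atp5l, subunit g, the lowest called rise at 0.29 ± 0.09 (adjusted p = 0.0306), which ended with any of 6 single arrays left out (adjusted p 0.0564 to 0.0831). Atp5o, which links the head to the peripheral stalk, was the lowest with Torin 1 at -0.64 ± 0.14 (adjusted p = 0.0142), lost without DMSO replicate 2, Torin 1 replicate 1 or Torin 1 replicate 2 (adjusted p 0.0539 to 0.0616). Atp5e, subunit epsilon, was the lowest with PP242 at -0.64 ± 0.18 (adjusted p = 0.0209), lost without DMSO replicate 2, PP242 replicate 1 or PP242 replicate 2 (adjusted p 0.0688 to 0.0977), and Atp5md, with the smallest called fall, was at -0.40. The second, dimmer row of Atp5e was at -0.26 with PP242. Atp5k fell with Torin 1, a call that held whichever single array was left out. Its fall with PP242 was lost without DMSO replicate 2 or PP242 replicate 1 (adjusted p 0.0607 to 0.0928).

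The c ring that turns in the membrane is encoded by Atp5g1, Atp5g2 and Atp5g3, which give the same mature protein. Atp5g2 read 9.45, 9.56 and 9.75 with PP242, 9.61, 9.73 and 9.58 with Torin 1, 9.79, 9.83 and 9.69 with DMSO and 9.18, 9.25 and 9.25 in unstimulated cells. The unstimulated arrays were below all others, with a change of 0.54 ± 0.10 (adjusted p = 0.00121) on activation, while -0.13 under Torin 1 and -0.18 under PP242 were not called. Atp5g1 was at 0.03 on activation with a 95% interval -0.46 to 0.51, and Atp5g3 at 0.31 ± 0.11 (adjusted p = 0.0546) missed the threshold although its DMSO arrays were all above its unstimulated arrays. For Atp5h, another stalk subunit, the row used gave 0.51 on activation and a second, dimmer row -0.31.

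The assembly factors held the highest rises of the whole set. Ndufaf4, which acts with Ndufaf3 in the early membrane arm of complex I, read 7.83, 7.78 and 7.72 with PP242, 8.09, 8.26 and 8.15 with Torin 1, 8.83, 8.88 and 8.95 with DMSO and 7.22, 7.18 and 7.33 in unstimulated cells. No group overlapped with another. DMSO cells had 3.13-fold the unstimulated level, a change of 1.65 ± 0.09 (adjusted p = 4.92e-08). Torin 1 gave -0.72 ± 0.09 (adjusted p = 0.000472) and PP242 -1.11 ± 0.09 (adjusted p = 4.5e-06) against DMSO. Ndufaf6, needed for an early complex I subunit, read 6.24, 5.86 and 6.33 with PP242, 6.51, 6.29 and 6.68 with Torin 1, 7.03, 7.50 and 7.29 with DMSO and 5.23, 5.60 and 6.06 in unstimulated cells. It changed by 1.64 ± 0.20 (adjusted p = 3.14e-05) on activation, -0.78 ± 0.20 (adjusted p = 0.0258) under Torin 1 and -1.13 ± 0.20 (adjusted p = 0.00121) under PP242, and its Torin 1 call ended without DMSO replicate 2, DMSO replicate 3, Torin 1 replicate 1 or Torin 1 replicate 2 (adjusted p 0.0676 to 0.102).

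Ndufaf7, an arginine methyltransferase for a core subunit, read 6.91, 6.87 and 6.49 with PP242, 6.85, 7.36 and 7.39 with Torin 1, 7.78, 7.63 and 7.82 with DMSO and 6.65, 6.78 and 6.62 in unstimulated cells. Its changes were 1.06 ± 0.15 (adjusted p = 0.00013) on activation, -0.54 ± 0.15 (adjusted p = 0.0403) under Torin 1 and -0.99 ± 0.15 (adjusted p = 0.000447) under PP242, and the Torin 1 call ended with any of 7 single arrays left out (adjusted p 0.0522 to 0.167). Ndufaf2, a late factor that binds before the NADH-oxidising module, rose by 0.95 and changed by -0.86 ± 0.19 (adjusted p = 0.0112) under Torin 1 and -0.71 ± 0.19 (adjusted p = 0.0159) under PP242, the last lost without DMSO replicate 2 or PP242 replicate 1 (adjusted p 0.0634 to 0.0703). Ndufaf8 rose by 0.91 ± 0.14 (adjusted p = 0.00023) and was not called with Torin 1 (-0.22) or PP242 (-0.42). Ndufaf1 at 0.72 ± 0.23 (adjusted p = 0.0334) and Ndufaf5, a hydroxylase that Ndufaf8 stabilises, at 0.43 ± 0.13 (adjusted p = 0.0283) rose, and neither was called with an inhibitor. Ndufaf1 lost its call without DMSO replicate 1, DMSO replicate 2 or unstimulated replicate 1 (adjusted p 0.0849 to 0.15) and Ndufaf5 without DMSO replicate 1, DMSO replicate 2, unstimulated replicate 2 or unstimulated replicate 3 (adjusted p 0.0692 to 0.0943). Ndufaf3, the partner of Ndufaf4, was not called at 0.31 ± 0.15 (adjusted p = 0.154), although its DMSO arrays were all above its unstimulated arrays. For complex I, 7 of 8 factors rose with a median of 0.93, where 11.8% of all genes rose.

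Among the complex II factors 1 of 4 was called on activation, where 11.8% of all genes were called higher and 12.1% lower. Sdhaf2, which attaches flavin to Sdha, was at -0.11 on activation (95% interval -0.32 to 0.11), and Sdhaf3, which with Sdhaf1 serves the iron-sulfur subunit, at 0.02 (95% interval -0.43 to 0.46). Sdhaf1 was at 0.26 ± 0.13 (adjusted p = 0.176), and its second, dimmer row was at -0.27. Sdhaf4, a chaperone of flavinated Sdha, was the 1 factor of 4 that rose, at 0.53 ± 0.18 (adjusted p = 0.0413), and lost its call with any of 7 single arrays left out (adjusted p 0.0507 to 0.189).

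Of the 3 complex III factors, 1 rose on activation, where 11.8% of all genes rose. Uqcc2, which with Uqcc1 helps to make cytochrome b, changed by 1.05 ± 0.19 (adjusted p = 0.000987) on activation, -0.77 ± 0.19 (adjusted p = 0.023) under Torin 1 and -0.88 ± 0.19 (adjusted p = 0.00546) under PP242. The Torin 1 call of Uqcc2 ended without DMSO replicate 1, DMSO replicate 2, Torin 1 replicate 1 or Torin 1 replicate 3 (adjusted p 0.0643 to 0.0925). Uqcc1 was called with PP242 at -0.56 ± 0.18 (adjusted p = 0.0469) and not on activation (0.41) or with Torin 1 (-0.27), and the PP242 call ended with any of 8 single arrays left out (adjusted p 0.0517 to 0.192). Uqcc3, which stabilises newly made cytochrome b, read 8.68, 8.66 and 9.00 with PP242, 8.51, 8.71 and 8.66 with Torin 1, 8.18, 8.54 and 8.36 with DMSO and 8.30, 8.36 and 8.60 in unstimulated cells. Its PP242 arrays were all above its DMSO arrays, and it was called higher with PP242 at 0.42 ± 0.13 (adjusted p = 0.0386), a call lost without DMSO replicate 1, DMSO replicate 3, PP242 replicate 1, PP242 replicate 3 or unstimulated replicate 2 (adjusted p 0.0508 to 0.154).

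**Figure D5:**
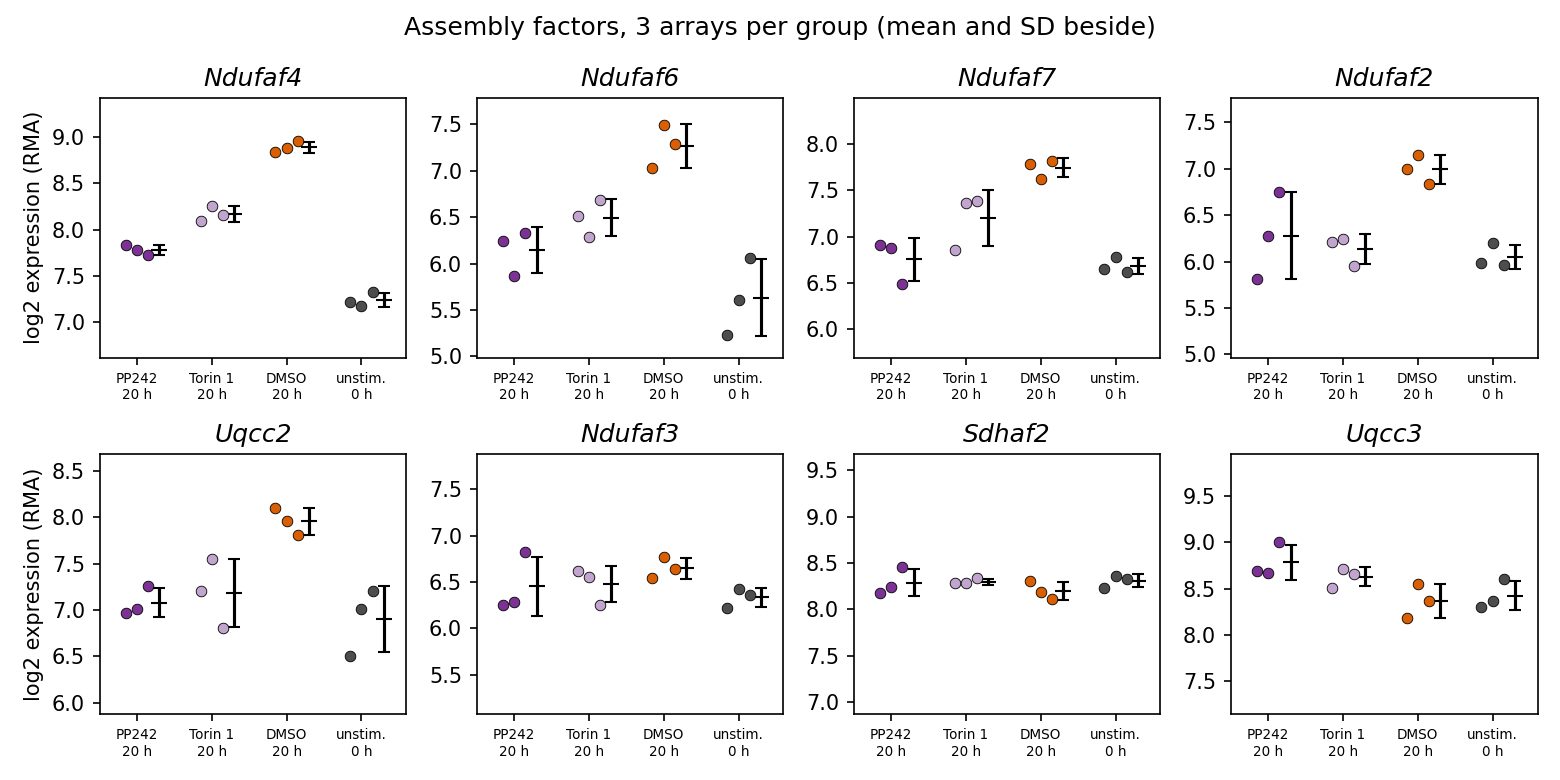
Log2 expression (RMA, y axis, each panel spanning the same range) in each array of 8 assembly factors, as points by group, with the group mean and SD beside them (n = 3). Ndufaf4 averaged 7.78 ± 0.06 with PP242, 8.17 ± 0.08 with Torin 1, 8.89 ± 0.06 with DMSO and 7.24 ± 0.08 in unstimulated cells, and Sdhaf2 shows overlapping groups.

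Part of the set was lower with each inhibitor. With Torin 1 against DMSO, 33 of the 96 genes fell and 0 rose, where 4.79% of all genes fell and 3.33% rose. At an unadjusted p under 0.05, 56 were lower and 2 higher. The median change was -0.30, beside 0.01 over all genes, and every Torin 1 array was below every DMSO array for 60 of the 96, beside 12.3% of all genes. The number that fell was 12 without Torin 1 replicate 1 (beside 2.91% of all genes), 18 without DMSO replicate 2 (2.86%) and 19 without DMSO replicate 1 (3.41%), and 12 of the 33 calls held whichever array was left out. By complex, subunits fell in 15 of 34 for complex I, 2 of 4 for complex II, 2 of 8 for complex III, 4 of 17 for complex IV and 5 of 18 for complex V, and 5 of 15 assembly factors fell. The medians were -0.38 for complex I, -0.41 for complex II, -0.37 for complex III, -0.08 for complex IV, -0.29 for complex V and -0.27 for the assembly factors. Ndufa10, an accessory subunit, had the smallest called fall in complex I at -0.36 ± 0.10 (adjusted p = 0.046), a call that ended with any of 10 single arrays left out.

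With PP242 against DMSO, 46 genes fell and 2 rose (Uqcc3 and Cox8b), where 9.27% of all genes fell and 7.38% rose. The median change was -0.36, beside 0.01 over all genes, and every PP242 array was below every DMSO array for 55 of the 96, beside 15.3% of all genes. Subunits fell in 19 of 34 for complex I, 3 of 4 for complex II, 5 of 8 for complex III, 6 of 17 for complex IV and 7 of 18 for complex V, and 6 of 15 assembly factors fell. The medians were -0.48 for complex I, -0.48 for complex II, -0.43 for complex III, -0.03 for complex IV, -0.30 for complex V and -0.42 for the assembly factors. Whichever array was left out, 31 of the 48 calls held. The rises on activation and the falls with each inhibitor were computed against the same 3 DMSO arrays, so they are given side by side and were not set against each other.

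Between the 2 compounds, which were used at different doses, 0 of the 96 genes were called higher and 0 lower with limma in PP242 cells against Torin 1 cells, where 0.162% of all genes were called higher and 0.23% lower. At an unadjusted p under 0.05, 4 were higher and 6 lower, and a fit without the empirical Bayes step called 1 lower (Ndufaf4). The median difference was -0.03, and the 95% interval of a gene's difference reached a median of 0.27 to either side, before any adjustment for the number of genes tested. Ndufaf4 differed by -0.39 ± 0.09 (adjusted p = 0.0954) with a 95% interval -0.59 to -0.19, and its PP242 arrays were all below its Torin 1 arrays. Ndufaf7 was at -0.45 (95% interval -0.77 to -0.12), Ndufaf6 at -0.35 (95% interval -0.77 to 0.07) and Sdha at 0.00 (95% interval -0.26 to 0.25).

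Against unstimulated cells the inhibitor-treated cells showed few calls. In Torin 1 cells 6 of the 96 genes were higher (Ndufaf4, Ndufaf6, Ndufaf7, Ndufaf8, Ndufa10 and Atp5g2) and 0 lower, where 4.42% of all genes were higher and 3.31% lower, and at an unadjusted p under 0.05 17 were higher and 3 lower. In PP242 cells 1 was higher (Ndufaf4) and 0 lower, where 1.73% and 1.34% of all genes were, and at an unadjusted p under 0.05 10 were higher and 1 lower. The median over the 96 genes was 0.10 for Torin 1 and 0.11 for PP242. Ndufaf4 stayed above the unstimulated level by 0.93 ± 0.09 (adjusted p = 3.52e-05) with Torin 1 and 0.53 ± 0.09 (adjusted p = 0.0054) with PP242, and Ndufaf8 by 0.70 ± 0.14 (adjusted p = 0.00622) with Torin 1. Of the 6 genes higher with Torin 1, the number called was 2 without unstimulated replicate 1 and 3 without unstimulated replicate 2, Torin 1 replicate 2 or Torin 1 replicate 3. Ndufaf7 lost its call with any of 10 single arrays left out (adjusted p 0.0545 to 0.171), and for PP242 the number called was 3 without PP242 replicate 1.

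The other genes of the pathway were taken from lists set by role. Of 20 further factors for complex IV, 9 rose on activation and 0 fell, where 11.8% of all genes were called higher and 12.1% lower. Of the same 20, 4 fell with Torin 1 (4.79% of all genes) and 8 with PP242 (9.27% of all genes). Cox10, which makes the haem of complex IV, rose by 0.94 ± 0.20 (adjusted p = 0.00319), Lrpprc, which stabilises mitochondrial mRNAs, by 0.92, and Coa3, which regulates the making of its core subunit, by 0.88. Of 15 other factors of complexes I, III and V, 8 rose (53.3%, against 11.8% of all genes) and 1 fell on activation. With PP242 1 of these was higher and 4 were lower (26.7%, against 9.27% of all genes), and with Torin 1 1 was higher and 2 were lower, where 4.79% of all genes were lower. Ecsit, which builds complex I with Ndufaf1, rose by 1.19 ± 0.11 (adjusted p = 3.54e-06) and changed by -0.66 under Torin 1 and -0.93 under PP242. Ttc19, a complex III factor, was lower on activation and higher with both inhibitors, at -0.43 ± 0.12 (adjusted p = 0.0152) on activation, 0.43 ± 0.12 (adjusted p = 0.0407) under Torin 1 and 0.45 ± 0.12 (adjusted p = 0.0181) under PP242.

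Of 5 electron carriers measured, 4 rose on activation (11.8% of all genes did), and 4 fell with Torin 1 (4.79% of all genes) and 4 with PP242 (9.27%). Cycs, cytochrome c itself, read 10.30, 10.44 and 10.57 with PP242, 10.08, 10.32 and 10.41 with Torin 1, 10.88, 10.85 and 10.92 with DMSO and 10.39, 10.41 and 10.36 in unstimulated cells. Its DMSO arrays were above all others, with changes of 0.50 ± 0.11 (adjusted p = 0.0034) on activation, -0.61 ± 0.11 (adjusted p = 0.00306) under Torin 1 and -0.44 ± 0.11 (adjusted p = 0.0102) under PP242. Cyc1 (cytochrome c1 of complex III), Etfa and Etfb (the electron transfer flavoprotein of fatty acid oxidation) rose too, with Etfb at 1.35 ± 0.14 (adjusted p = 8.88e-06), while Etfdh, which passes their electrons to coenzyme Q, was at -0.26 and was not called. In coenzyme Q synthesis 6 of 11 genes rose (54.5%, against 11.8% of all genes) and 1 fell on activation, and 4 fell with PP242 (36.4%, against 9.27%) and 3 with Torin 1 (27.3%, against 4.79%). Coq7, the hydroxylase near the end of that pathway, read 5.51, 5.83 and 5.95 with PP242, 5.99, 6.21 and 6.02 with Torin 1, 7.03, 7.44 and 7.44 with DMSO and 5.49, 5.45 and 5.83 in unstimulated cells. Every DMSO value was above all the others, and Coq7 changed by 1.71 ± 0.15 (adjusted p = 2.32e-06) on activation, -1.23 ± 0.15 (adjusted p = 0.00035) under Torin 1 and -1.54 ± 0.15 (adjusted p = 1.53e-05) under PP242. Coq8a was the gene that fell, at -0.48 ± 0.13 (adjusted p = 0.0192).

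Of 15 genes for transcription and upkeep of mitochondrial DNA, 2 rose on activation (Tfb1m and Pprc1) and 3 fell (Polg2, Nrf1 and Yy1), where 11.8% of all genes were higher and 12.1% lower. Nrf1, which encodes the factor whose motif was counted above, read 8.69, 8.34 and 8.40 with PP242, 8.47, 8.58 and 8.46 with Torin 1, 8.02, 8.13 and 8.06 with DMSO and 8.46, 8.50 and 8.65 in unstimulated cells, and its DMSO arrays were below all others. Its changes were -0.47 ± 0.11 (adjusted p = 0.0059) on activation, 0.43 ± 0.11 (adjusted p = 0.0256) under Torin 1 and 0.41 ± 0.11 (adjusted p = 0.0181) under PP242. Pprc1, a coactivator of the PGC-1 family, rose by 1.06 ± 0.10 (adjusted p = 3.96e-06) and changed by -0.57 ± 0.10 (adjusted p = 0.00136) under PP242, whereas Gabpa, the DNA-binding subunit of GABP, was at -0.01 (95% interval -0.25 to 0.24) and Tfam, which packages mitochondrial DNA, at 0.52 ± 0.20 (adjusted p = 0.0806). Of genes encoded by mitochondrial DNA, 1 row was listed under a plain symbol, ND4L, a complex I subunit, at 0.19 ± 0.15 (adjusted p = 0.39) on activation. ND4L was looked up after the other values were seen, and the other mitochondrial DNA genes were not analysed here.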

How the data were processed

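The samples were 12 GeneChip Mouse Gene 2.0 ST arrays, 1 per RNA sample, from picogram amounts of RNA amplified by the WT Pico protocol. The deposited values are log2 expression values that the authors made by RMA (background correction, quantile normalization and probe summary), with Partek 6.6 named in the submitters' processing notes; the genome build is not given in the sources used here. Quantile normalization forces the arrays to a shared distribution, so a shift of all RNA is not seen, and amplification from so little RNA can add spread between arrays. Of 41345 transcript clusters, 23521 carried 1 gene symbol, and the brightest row was kept per gene (22180 genes). A linear model of 4 group means over all 12 arrays was fitted with limma 3.58.1 (lmFit and eBayes, R 4.3.3), two-sided, with Benjamini-Hochberg adjustment over all genes and a threshold of 0.05. The study's methods name an ANOVA with the same adjustment. Intervals are 95% intervals from the moderated fit. The groups came from the labels, which number replicates 1 to 3 without naming the animals, so p-values measure the spread between these samples, and 3 arrays per group limit the precision.

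The members and lists were chosen with earlier results of these data known. Named were all assembly factors, a core set of subunits, the paralogues of complexes IV and V, the called subunit with the highest and the lowest change in each complex and comparison, the called members filling a count of 5 or fewer in a complex, and further genes chosen after their values were seen. The fit was tested on simulated data. Alternatives changed the normalization, the filter on dim genes, the choice of row, the variance model, the arrays fitted and the threshold. Promoters came from RefSeq (GRCm38.p6), searched on both strands. Same-numbered replicates did not deviate together (18 correlations of −0.0724 to 0.0587 between their deviations), so no pairing was used.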

Additional observations from a re-analysis of the deposited data

How the results depend on the processing

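No member changed sign under an alternative where it was called. Second rows entered the alternatives only through the median over a gene's rows. Taken alone, the second rows of Atp5h on activation and Ndufa11 with PP242 had the sign opposite to the called row. Single-gene calls kept their side of the threshold in 3025 results and lost it in 454. A replicate block left the counts at 58 higher on activation, 31 lower with Torin 1, and 3 higher and 46 lower with PP242. It gave 9 higher for Torin 1 against unstimulated cells (6 without it). All of these counts were within 1.5 times the main counts. The labels do not say whether a shared number marks a shared source. The counts on activation were 33 higher at 1.5-fold (beside 6.9% of all genes) and 1 lower when only the 2 groups compared were fitted (11.1%). With Torin 1, 1 gene was higher with a filter on dim genes (beside 8.73% of the genes kept) and 1 with trended, robust variances (4.5% of all genes). With that compound 21 were lower when all transcript clusters were tested (2.99%), 12 at an adjusted p under 0.01 (2.19%) and 16 at 1.5-fold (2.48%). With PP242, 1 was higher with quantile normalization (beside 6.12% of all genes), centred arrays (5.49%), all clusters (5.92%) and no empirical Bayes step (6.65%). The number higher with PP242 was 0 when only the 2 groups were fitted (5.41%), at 0.01 (3.78%) or at 1.5-fold (2.69%). At 0.01, 29 were lower with PP242 (5.59%), and at 1.5-fold 21 were (5.04%). For PP242 against Torin 1, trended, robust variances gave 1 higher (beside 0.568% of all genes) and 1 lower (0.613%). The dim filter (0.902% of the genes kept) and no empirical Bayes step (0.176% of all genes) gave 1 lower each. For Torin 1 against unstimulated cells, trended, robust variances gave 10 higher (beside 5.13% of all genes) and 1 lower (4.27%). The threshold of 0.01 gave 2 higher (2.37%) and 1.5-fold 3 higher (2.55%). For PP242 against unstimulated cells, the dim filter (beside 4.19% of the genes kept) and trended, robust variances (2.14% of all genes) gave 3 higher each. The 1.5-fold threshold gave 0 (1.06%). The complex IV median was 0.26 on activation and −0.20 with Torin 1 after the dim filter, and with PP242 was −0.24 after the dim filter, with the median over a gene's clusters, and with Ndufa4 counted in complex IV and Cox7a2l left out. The causes of these shifts were not tested.

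With 1 array left out, the counts ran 44 to 60 higher and 0 to 2 lower on activation, 12 to 35 lower with Torin 1, 0 to 3 higher and 33 to 53 lower with PP242, 2 to 8 higher for Torin 1 and 1 to 3 higher for PP242 against unstimulated cells. The medians ran −0.16 to 0.021 for complex I in PP242 against Torin 1, −0.56 to −0.36 for complex III with PP242, 0.092 to 0.21 on activation, −0.13 to −0.0082 with Torin 1 and −0.14 to 0.016 with PP242 for complex IV, whose sign with PP242 turned without DMSO replicate 2, and 0.49 to 0.71 for the assembly factors on activation. The 2 arrays left in a group were taken to vary like the other groups.

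Limits: each group had 3 arrays, 0 h and 20 h cells differ in culture as well as stimulation, and transcript levels say nothing of protein or respiration. Genes at or under the median of all values have compressed changes, and second rows, among them those of Atp5e, Atp5h, Cox5b, Cox7b, Ndufa11, Ndufa12 and Sdhaf1, differed from those used. Second rows were at -0.12 for Ndufa12 with Torin 1 and 0.03 for Ndufa11 with PP242. With the median over a gene's rows, those calls ended (-0.37, adjusted p = 0.255, and -0.24, adjusted p = 0.309). Both were counted among the complex I falls. The Atp5h call on activation ended too (0.10, adjusted p = 0.614).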
